A study of Homo sapiens with 12 samples.

Results

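miR-1246 and miR-1290 are short human microRNA entries whose sequences resemble a stretch of U2, a small nuclear RNA of the spliceosome. They were chosen by name in the tables of the series, with earlier results of these data known, and the choice rests on which of the 2 names had a row. The row hsa-miR-1246 stood in both tables and that of hsa-miR-1290 in neither, so 1 of the 952 microRNAs listed in either table is described here. The table of the first comparison held 837 microRNAs, that of the second 868, and 753 were in both.

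Small RNA was sequenced from K562, a human erythroleukaemia cell line, in 12 libraries, 3 for each of 4 groups, which the depositors call biological triplicates. In the first comparison, the groups were cells given a guide RNA against CYRANO (sgCYRANO) and, as their control, cells given a guide without a target (sgNT). CYRANO is a long non-coding RNA that directs decay of miR-7. In the second, ZSWIM8-/- cells (ZSWIM8 KO), which lack the substrate receptor of a ubiquitin ligase needed for such decay, were set against wild-type cells (WT). The sample titles of these groups name no guide. Whether an edited line is 1 clone or a pool is not stated in the labels.

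MicroRNAs are short strands that load into Argonaute proteins and repress messenger RNAs that pair with bases 2 to 8 of the strand, the seed. Most are cut from hairpin transcripts by Drosha and Dicer. U2 pairs with the branch point of introns during splicing and carries a uridine-rich run, the Sm site, on which a ring of Sm proteins assembles. miR-1246 was annotated from a hairpin on chromosome 2 and has been described as a p53-responsive repressor of the kinase DYRK1A, but reads with its sequence can also come from U2. The same has been proposed for miR-1290, annotated on chromosome 1.

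The mature strands are shown first, for their likeness to each other and to U2. Both come from RefSeq (GRCh38.p14), are written 5′ to 3′ and have the seed in capitals.
miR-1246: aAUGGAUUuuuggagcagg
miR-1290: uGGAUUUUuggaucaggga
miR-1246 lies at chr2:176601024-176601042 on the - strand and miR-1290 at chr1:18897078-18897096 on the - strand. From base 3 of miR-1246 onward, both strands overlap over 17 bases with 1 mismatch. The shift of 2 bases gives them different seeds, and each seed was found in 1 of the 2370 RefSeq mature sequences, its own. No other measured microRNA with a RefSeq sequence therefore shares the seed of miR-1246.

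The hairpin and 2 U2 genes show how far the likeness reaches. In the hairpin from RefSeq (chr2:176600980-176601052, - strand) the mature strand is in capitals. In the windows of U2 from GENCODE v29 (GRCh38), written as RNA, the 19 bases aligned with miR-1246 are in capitals.
MIR1246: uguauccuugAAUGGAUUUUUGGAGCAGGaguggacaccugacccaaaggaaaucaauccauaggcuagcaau
RNU2-1: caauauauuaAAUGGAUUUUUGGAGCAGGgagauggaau
RNU2-2P: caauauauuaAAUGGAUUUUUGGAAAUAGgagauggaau
The RNU2-1 window lies at chr17:43233856-43233894 and the RNU2-2P window at chr11:62841688-62841726, both on the - strand. RNU2-2P is listed as RNU2-2 in RefSeq.

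All 19 bases of miR-1246 matched bases 94 to 112 of RNU2-1, which is 191 bases long in this annotation. The match ended with the mature strand on either side, since the hairpin and RNU2-1 shared 0 further bases to the left and 0 to the right. Against RNU2-2P the best gapless alignment covered the same bases with 4 mismatches, G15A, C16A, A17U and G18A, where positions are counted from the 5′ end of miR-1246 and its base comes first. miR-1290 aligned with bases 96 to 114 of RNU2-1 with 1 mismatch, U13G, counted from its own 5′ end. A read of exactly the 19 bases of miR-1246 is thus the same in the hairpin and in RNU2-1, while a read of a longer stretch would differ between them. The tables hold no read lengths or sequences, and the counting of reads that match several places is not stated in the sources used here.

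Across 206694 GENCODE transcripts, miR-1246 was found in 20. Of these, 1 was its own hairpin and 19 were small nuclear RNAs, of which 7 carry an RNU2 name and 12 are unnamed members of the U2 family. These 19 are part of 90 annotated U2 transcripts. miR-1246 was the 1 sequence of 2370 RefSeq mature strands found whole in any of 1900 annotated small nuclear RNAs. miR-1290 was found whole in 1 transcript, its own hairpin, and 23 small nuclear RNAs held it with 1 mismatch.

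The match covers the run AUUUUUG, the Sm site of U2. A search for these 7 letters on the strand as written found them once in RNU2-1, at bases 99 to 105, at bases 6 to 12 of miR-1246 and at bases 4 to 10 of miR-1290. Of the 2370 RefSeq mature strands 5 held the run, or 0.211%. The measured ones were miR-1246, miR-96-5p and miR-548ar-3p. This is a description of letters, not of a binding site in the microRNAs.

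miR-1246 is also short. Its 19 bases compare with a median of 22 over the 865 measured microRNAs that had a RefSeq sequence, of which 25 were 19 bases or shorter. Its share of G and C was 42.1%, against a median of 50%. The hairpin overlaps no other gene of GENCODE v29, and the nearest annotated genes were non-coding, AC017048.3 at a gap of 10385 bases, LINC01116 at 28537 bases and LINC01117 at 36658 bases.

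The values are the authors' deposited comparisons. The tables give a log2 fold change and a mean level per microRNA, not values of single libraries, so the spread over the 3 libraries of a group is not shown. The headers name no direction, and each fold change was taken as edited over control. Group means in counts per 1000000 microRNA reads (CPM, not divided by length) were recovered from the deposited columns. Library totals, read from the smallest steps of the recovered means, ran from 860000 to 2490000 reads, with group totals of 5490000 for sgNT, 5290000 for sgCYRANO, 3810000 for WT and 7060000 for ZSWIM8 KO. The assumed direction was checked on miR-7-5p, the substrate of CYRANO, with the group labels taken as given. Its log2 fold change in the authors' deposited table was 2.52 in sgCYRANO and 2.35 in ZSWIM8 KO. CYRANO and ZSWIM8 themselves are not measured by small-RNA libraries. Of 6 erythroid and megakaryocytic markers all 6 were measured, at 97.5 to 34530 CPM in the first table and 179.3 to 45501 CPM in the second. Of 11 markers of other cells 8 and 7 were measured, at up to 69.8 and 91.2 CPM, and 0 of either set passed in either comparison. The widest shift among the latter was in miR-375-3p, with 3.70 CPM in WT, 49.2 CPM in the knockout and an adjusted p of 0.201 (edgeR).

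By the reads assigned to it, the entry hsa-miR-1246 was moderately abundant in these cells. Whether these reads came from its hairpin or from U2 is not shown, and its level here means the assigned reads. The group mean of hsa-miR-1246 was 204.3 CPM in sgNT, 189.6 CPM in sgCYRANO, 325.4 CPM in wild-type cells and 84.5 CPM in ZSWIM8 KO. WT was the highest group and ZSWIM8 KO the lowest, with sgNT and sgCYRANO between them and close to each other. If the 3 libraries of a group were alike, these means rest on about 1122, 1003, 1239 and 596 reads in that order, and the exact 95% Poisson intervals, which cover counting error only, were 192.6 to 216.7, 178.1 to 201.8, 307.6 to 344.1 and 77.8 to 91.5 CPM. By its mean it ranked 107th of 837 and 108th of 868.

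**Figure D1:**
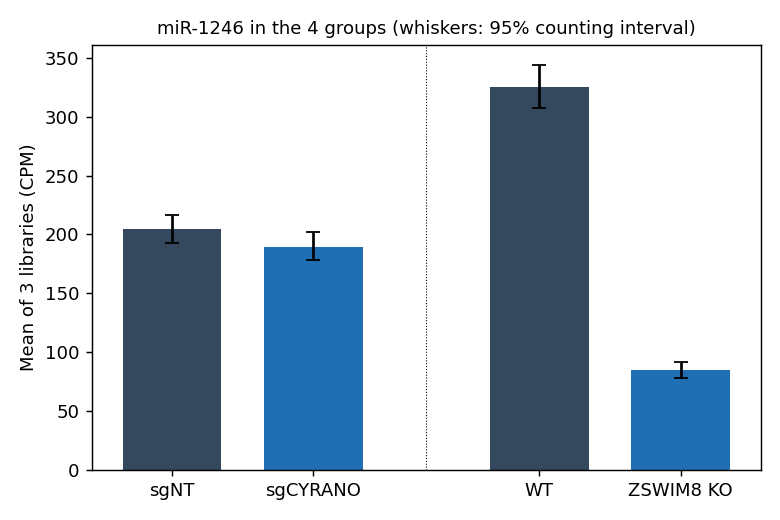
Mean level of miR-1246 (CPM, mean of 3 libraries, linear axis from 0) in the 4 groups, recovered from the deposited tables; whiskers are exact 95% Poisson intervals of the counting error, and the dotted line separates the tables, which were scaled separately. sgNT and sgCYRANO stand at 204.3 and 189.6 CPM, WT at 325.4 and ZSWIM8 KO at 84.5.

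The comparison of sgCYRANO with sgNT tests the microRNAs for a difference between cells given either guide, and miR-1246 did not pass there. In the authors' deposited table its log2 fold change was -0.11 ± 0.12, where the error is the standard error implied by the deposited p, with a 95% interval of -0.35 to 0.13 and an adjusted p of 0.980 (edgeR, 3 libraries a group). The interval leaves room for changes of up to 0.35 on the log2 scale in the direction of a fall. In this comparison 0.119% of microRNAs (1 of 837) passed an adjusted p of 0.05, and that one was miR-7-5p, which rose. In the authors' deposited table the 3 microRNAs just above miR-1246 in abundance, miR-769-5p, miR-218-5p and miR-361-3p, stood at -0.34, -0.28 and -0.19, and the 3 just below, miR-222-3p, miR-767-5p and miR-361-5p, had -0.19, 0.00 and -0.20. miR-1246 lay within the range of these neighbours, of which 0 passed.

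The comparison of ZSWIM8 KO with WT tests them for a difference between knockout and wild-type cells. Here miR-1246 fell, from 325.4 to 84.5 CPM. Whether loss of ZSWIM8 or another difference between the cell lines underlies the fall was not tested. The authors' deposited table gave a log2 fold change of -1.94 ± 0.20 (95% interval -2.33 to -1.56), which is 3.85-fold lower, with an adjusted p of 2.71e-20 (edgeR, 3 libraries a group). The p is given as the authors deposited it and as a description, since miR-1246 was singled out with these values known. In this comparison 9.91% of microRNAs (86 of 868) passed, 5.18% (45) as lower.

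The fall ranked high by p, and by size among abundant microRNAs. By deposited p, miR-1246 was 3rd of 868, after miR-7-5p, which rose, and miR-221-3p, which fell. Over all 868 it had the 53rd lowest log2 fold change. Of the 304 microRNAs with a mean of 10 CPM or more it had the 5th lowest log2 fold change, and of those called the 3rd lowest, after miR-222-3p and miR-221-3p, at -4.88 and -4.76 in the authors' deposited table. These 2 strands come from 1 hairpin cluster on chromosome X and are known as repressors of p27, which holds back the cell cycle. The share of calls was higher among abundant microRNAs, with 23% at 10 CPM or more, and 10.5% as lower.

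None of its named neighbours in abundance had a fall of that size. In the authors' deposited table the 3 just above, miR-767-5p, miR-3615 and miR-652-3p, had 0.47, 0.07 and 0.42, and the 3 just below, miR-21-3p, miR-361-3p and miR-769-5p, had -0.73, 0.10 and -0.14. Of these 6, miR-767-5p rose (adjusted p = 0.036, edgeR), miR-21-3p fell (adjusted p = 0.000405, edgeR) and 4 did not pass. Over the 30 microRNAs nearest in abundance, 15 on each side, the range was -0.73 to 1.01 with a median of 0.09, and 7 were called. With the group means, the rank of miR-1246 was 91st in WT and 155th in ZSWIM8 KO.

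**Figure D2:**
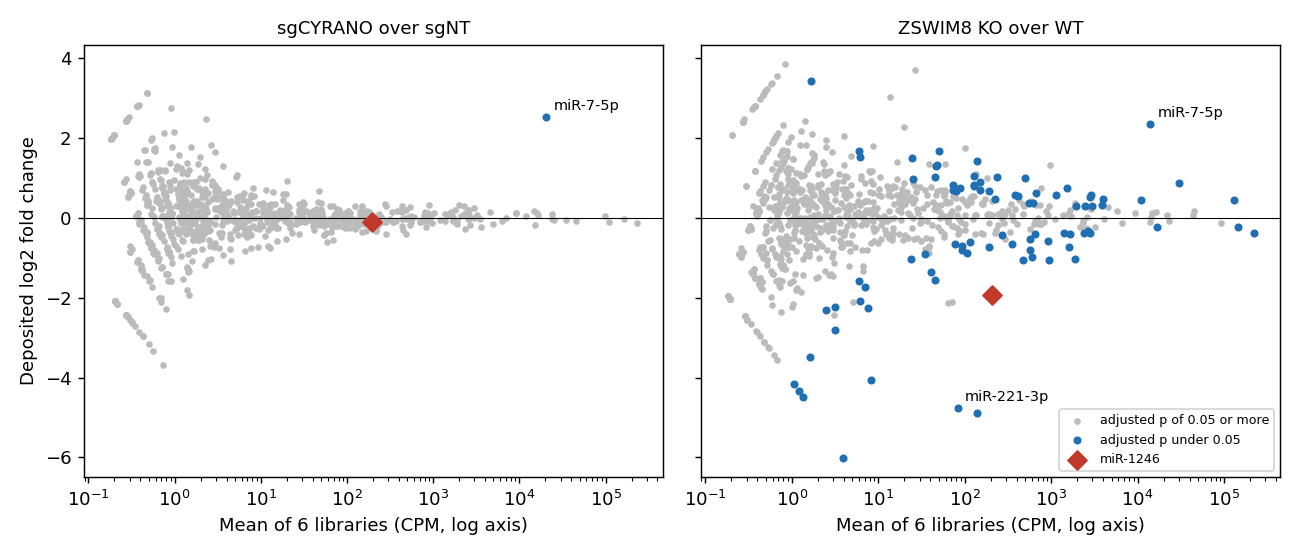
Deposited log2 fold change against mean level over 6 libraries (CPM, log axis) for every microRNA of both tables, with microRNAs at an adjusted p under 0.05 in blue and miR-1246 as a red diamond. miR-1246 sits in the body of the cloud at -0.11 in the comparison of sgCYRANO with sgNT and below it at -1.94 in the comparison of ZSWIM8 KO with WT, where miR-221-3p at -4.76 lies lower still.

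The errors behind the values of miR-1246 are mostly shared with other microRNAs. For miR-1246, the deposited F and p imply 3348 degrees of freedom in the first comparison and 164.1 in the second. Each was also the commonest value of its comparison, held by 221 of 837 and 454 of 868 microRNAs. Its error from F was 0.124 in the first comparison, against a median of 0.123 over its 30 neighbours in abundance, and 0.169 in the second, against 0.165. The deposited error therefore says little about how far the single libraries of miR-1246 spread. Implied degrees of freedom differed between rows, and miR-1246 was not among those with few, such as miR-10b-5p with 4.73 in the second comparison. The 6 libraries in 2 groups leave 4 denominator degrees of freedom. Read with these, the deposited F of miR-1246 (edgeR) gave an adjusted p of 0.0593 in ZSWIM8 KO, which is no call. Under this reading 3 microRNAs of the table passed. That F already holds the error shared between microRNAs, which 4 degrees of freedom do not match, so the reading is not a proper test.

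The fold changes of both comparisons were set against each other, since no library is shared between the tables. The change in ZSWIM8 KO minus that in sgCYRANO was -1.84 ± 0.23 on the log2 scale, with a 95% interval of -2.29 to -1.38. No p is given for this difference, as miR-1246 was chosen with both values known. For the same reason the interval is a description. It combines the errors implied by the deposited p-values and allows for no gap between the control groups. miR-7-5p, by contrast, had values of 2.52 and 2.35 in the authors' deposited tables, on the same side of 0 in both.

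Both control groups are unedited at ZSWIM8 and CYRANO, and the level of miR-1246 was higher in WT than in sgNT. The gap was 0.67 on the log2 scale, across tables that were scaled separately, and was not tested. Over the 294 microRNAs with a mean of 10 CPM or more in both tables, the median of this ratio was 0.02 and the 5th and 95th percentiles were -0.53 and 0.51. miR-1246 was among the 7 highest and, counting both directions, among the 15 farthest from 0. ZSWIM8 KO stood 1.27 below sgNT on the same scale, against a median of 0.14, and was among the 7 lowest of the 294. The direction of the fall was thus the same against either control, and its size against sgNT was smaller by the gap between the controls. Sequencing occasion is not given in the labels, and its part in the gap was not tested.

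By the pair of log2 fold changes, the 5 microRNAs most like miR-1246 of the 294 were miR-10b-5p, miR-215-5p, miR-99a-5p, miR-100-5p and miR-96-5p. Likeness is the straight-line distance in the plane of both comparisons, from 0.17 for miR-10b-5p to 0.89 for miR-96-5p. miR-10b-5p had 114.4 CPM in WT but 26.4 CPM in the knockout, and its log2 fold change in the authors' deposited table was -2.11 ± 0.87, which did not pass (adjusted p = 0.1098, edgeR). For miR-100-5p the authors' deposited table gave -2.13 ± 1.07, which did not pass either (adjusted p = 0.240, edgeR). Their implied degrees of freedom in this comparison were 4.73 and 4.34, far from the 164.1 of miR-1246. Their errors thus borrowed little from other microRNAs. Taken from F instead, the errors were 0.57 and 0.77, against 0.17 for miR-1246, because the error implied by p is wider at few degrees of freedom.

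The other strands near miR-1246 in that plane passed in ZSWIM8 KO. miR-215-5p, a p53-responsive microRNA, went from 67.5 to 22.9 CPM, and the authors' deposited table gave -1.55 ± 0.29. miR-99a-5p went from 58.1 to 22.6 CPM, and the authors' deposited table gave -1.36 ± 0.29. miR-96-5p, of the miR-183 cluster and the other called strand with the run AUUUUUG, went from 643.4 to 310.0 CPM, and the authors' deposited table gave -1.05 ± 0.14. The third measured strand with that run, miR-548ar-3p, did not pass, at 13.1 and 10.6 CPM and, per the authors' deposited table, -0.31 ± 0.39. In sgCYRANO none of these 6 strands passed, where 1 of 837 microRNAs did. Of all microRNAs with a mean of 10 CPM or more, 10.5% were called as lower in ZSWIM8 KO. The strands with the run were added after values were seen, and a link between the run and the falls was not tested.

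**Figure D3:**
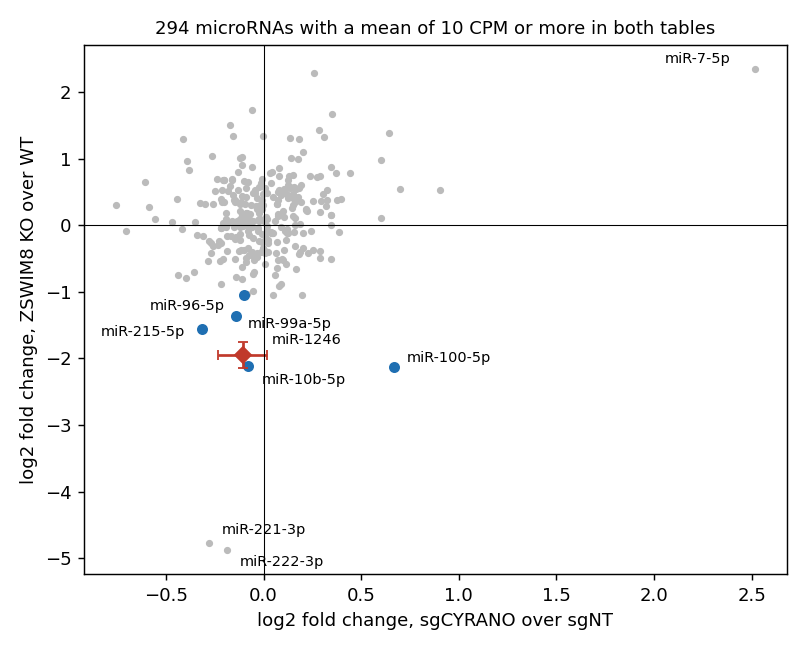
Log2 fold change in ZSWIM8 KO over WT against that in sgCYRANO over sgNT for the 294 microRNAs with a mean of 10 CPM or more in both tables. miR-1246 is the red diamond with standard errors, at -0.11 and -1.94, and the 5 microRNAs nearest to it are in blue; miR-10b-5p is the nearest and miR-221-3p and miR-222-3p lie lower.

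miR-1246 was then set beside other microRNA entries that lie inside structured RNAs of another kind. Apart from miR-1246 and miR-1290, the list held 24 entries, parts of small nucleolar, transfer, ribosomal and mitochondrial RNA. A search for whole mature strands in annotated structured RNAs found 13 measured ones, miR-1246 among them. The types searched held mitochondrial but no nuclear transfer RNA, and miR-1260b, listed as part of a transfer RNA, was not found. Of the 24, 9 were measured in the first comparison and 8 in the second. In sgCYRANO 0 of the 9 passed, where 0.119% of all microRNAs did. Their median log2 fold change was 0.42 against 0.01 over all 837, and 0.16 against -0.02 with a mean of 10 CPM or more, which 3 of them had. In ZSWIM8 KO 1 of the 8 fell and 7 did not pass, where 5.18% of all microRNAs fell. The median of the 8 was -0.23 against 0.08 over all 868, and that of the 3 with a mean of 10 CPM or more was 0.11 against 0.13.

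The entry that fell was miR-4485-3p, which lies whole in the mitochondrial ribosomal RNA MT-RNR2. Its level was 10.7 CPM in WT against 3.12 CPM in the knockout, for which the authors' deposited table gave -1.74 ± 0.50 (edgeR, adjusted p = 0.0075). In sgNT and sgCYRANO it had 7.04 and 7.35 CPM. Like miR-1246 it was lowest in ZSWIM8 KO, with the tables scaled separately.

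The more abundant entries of this kind did not pass in ZSWIM8 KO. miR-1260b, part of a transfer RNA, had 111.8 and 90.4 CPM, with -0.31 ± 0.20 in the authors' deposited table. miR-1248, from the small nucleolar RNA SNORA81, had 27.8 and 30.1 CPM, with 0.11 ± 0.31 in the authors' deposited table. miR-664a-3p, from SNORA36B, had 15.2 and 19.9 CPM, with 0.39 ± 0.36 in the authors' deposited table. Among the entries found by search alone, miR-12136, inside the mitochondrial transfer RNA MT-TS1, had 25.8 and 18.1 CPM, and miR-1843, inside SCARNA3, had 16.3 and 24.8 CPM.

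Of those found by search, 10 besides miR-1246 were in the second table, and 1 of these fell, again miR-4485-3p, where 5.18% of all microRNAs fell. The summed level of the 10 was 108.4 CPM in WT, against 110.4 CPM in the knockout. No level of U2, or of other full-length structured RNAs, is in the tables, and their part in the fall of miR-1246 was not tested.

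**Figure D4:**
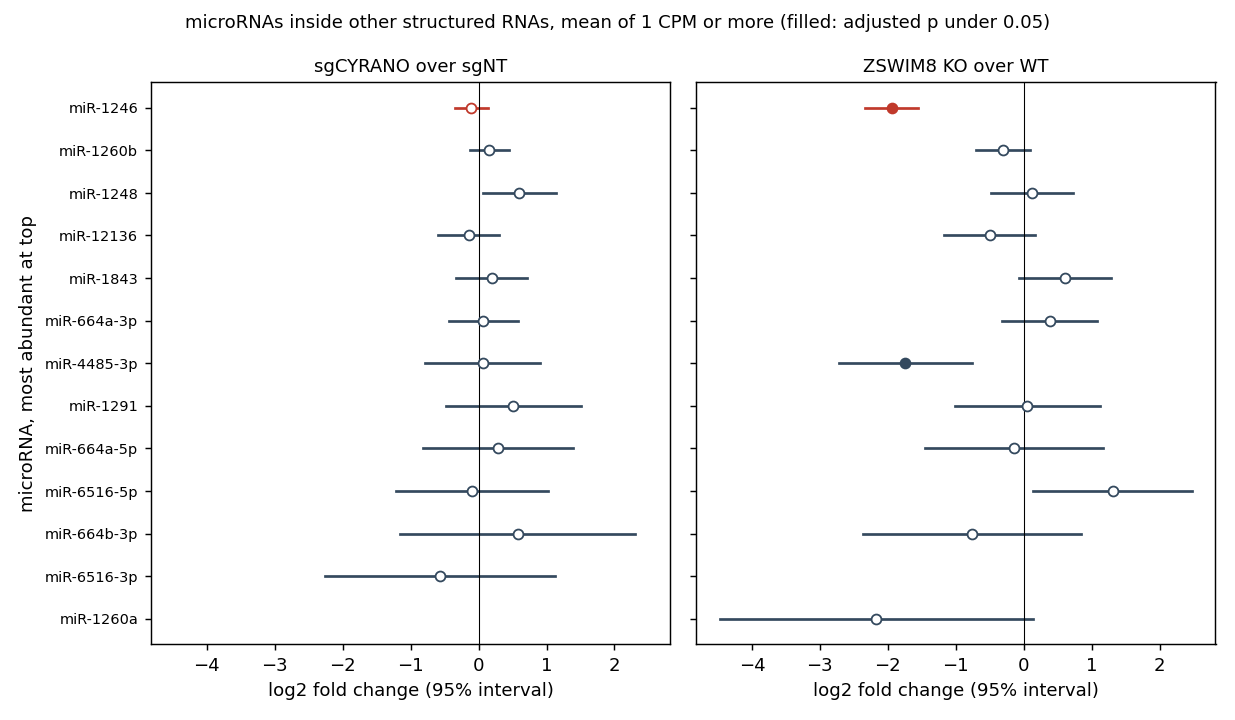
Log2 fold changes with 95% intervals for microRNAs whose sequence lies inside another structured RNA and whose mean was 1 CPM or more, in both comparisons on 1 scale, with filled points at an adjusted p under 0.05 and the most abundant at the top. In ZSWIM8 KO over WT miR-1246 at -1.94 and miR-4485-3p at -1.74 are filled, and in sgCYRANO over sgNT none is.

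Short strands as a class and non-canonical microRNAs were read the same way. Of the 25 measured strands of 19 bases or fewer, 20 were in the second table, of which 1 fell, miR-1246 itself, and 19 did not pass, with a median of -0.40 against 0.08 over all 868. That count is near the 5.18% of all microRNAs that fell. With a mean of 10 CPM or more there were 5, at -1.94 to 0.25. Of 13 strands made without Drosha or without Dicer, 7 were measured and 0 passed in ZSWIM8 KO, where 9.91% of all microRNAs did. Their median log2 fold change was 0.48 and their range -2.55 to 0.74, with 2 below 0. For the mirtron strand miR-877-5p, with 14.7 and 22.4 CPM, the authors' deposited table gave 0.60 ± 0.35, and for miR-484, with 1537 and 1752 CPM, 0.19 ± 0.11. Of the 2 below 0, miR-320a-5p had 9.53 CPM in WT and 3.69 CPM in the knockout, with -1.34 ± 0.49 in the authors' deposited table (edgeR, adjusted p = 0.0554), and miR-1224-5p was under 1 CPM in both groups. The part of strand length in the fall of miR-1246 was not tested.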

How the data were processed

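Total RNA of K562 cells was isolated with a miRNeasy kit, and small-RNA libraries came from a NEBNext kit, as the labels' protocols state. Without roles or order, the submitters' processing notes list STAR, featureCounts, edgeR, bcl2fastq, FastQC 0.11.2 and, as the build, hg19. Per the file headers, the authors deposited for each comparison a log2 fold change, a mean log2 CPM, an F statistic (treated as a score), and p-values before and after adjustment. The design had also provided for counts per library, which the files did not hold.

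Group means were recovered from the mean log2 CPM, taking a prior count of 2, and from the log2 fold change, taking one of 0.125. They summed to 1000000 in each group. The deposited adjusted p-values equal a Benjamini-Hochberg adjustment of the whole table to within 1.09e-06. Library totals are the CPM steps that account for all low group means (220, 227, 241 and 208 values under 1 CPM, within 0.0015 CPM). Standard errors divide the log2 fold change by the normal deviate belonging to its p, which widens them where degrees of freedom are few. Were the fold changes meant the other way round, the means and totals of control and edited groups would swap. Sequences were matched with Python 3.11.15 scripts to RefSeq GRCh38.p14 and GENCODE 29, 865 of 952 microRNAs having a RefSeq sequence. The procedures were run on simulated data built with the same prior counts, so recovery of the means was fixed by construction. Those data took p from a normal distribution, so errors at few degrees of freedom were not checked.

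The members and lists were chosen with earlier results of these data known. Named besides the members are miR-7-5p, listed entries inside structured RNAs, 3 neighbours in abundance on each side and the 5 microRNAs most alike. miR-221-3p, miR-222-3p, strands with AUUUUUG, short strands, entries found by search and non-canonical examples were added after values were seen.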

Additional observations from a re-analysis of the deposited data

How the results depend on the processing

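The fall of miR-1246 in ZSWIM8 KO kept its direction and its call after centring on the median (-2.07) or trimmed mean (-2.09) of microRNAs at 10 CPM or more, and when p-values were adjusted only over microRNAs at 10 or at 1 CPM or more. It was no longer called with the deposited F on 4 denominator degrees of freedom (log2 fold change -1.94, adjusted p = 0.0593, edgeR's F). The calls of that table then went from 86 to 3. This setting pairs an error shared between microRNAs with unshared degrees of freedom, so it is not a proper test. With it, the adjusted p over the alternatives (edgeR) ran from 1.71e-23 to 0.0593. Centring left 30 calls higher and 62 lower, against 41 and 45 as deposited. In sgCYRANO miR-1246 stayed uncalled under each of these. Turned, by construction, the log2 fold changes would read 0.11 and 1.94. The difference between the comparisons was -1.99 and -2.004 after centring, and its interval was -2.25 to -1.43 with errors from F. No paired analysis was possible because the tables hold no values per library, and for the same reason left-out libraries, DESeq2 and other count normalizations were not run. At about 596 to 1239 reads a group, counting error is small beside the fall, and the spread between libraries is the limit that these tables do not show.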
